A study of Mus musculus with 32 samples.

Results

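Short light livers were compared across a 6 h step of the day, from ZT6 to ZT12 (ZT, zeitgeber time, is the hour on the animals' light cycle), by sequencing polyadenylated RNA. The comparison rests on 8 of the 32 libraries of the series, the 4 labelled SL and ZT6 and the 4 labelled SL and ZT12, so n = 4 per group throughout. All 32 mice were males of the inbred strain C3H/HeNCrl on a high fat diet, and no group on another diet is analysed here. They lived under a short light (SL) or a long light (LL) photoperiod and gave 4 livers per photoperiod at each of ZT0, ZT6, ZT12 and ZT18. The sources used here do not give the hours of light per day, the event that sets ZT0 or the age of the mice. C3H mice are known for making melatonin and for an inherited loss of photoreceptors, which bears on what a light schedule does in them. Checked against its markers, the tissue expressed 10 hepatocyte genes that summed to 138000 to 154000 CPM (read counts scaled to library size) in the 8 libraries. Each value is a ZT12 level, a ZT6 level or a log2 fold change of ZT12 over ZT6, given ± its standard error (SE).

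The liver clock is a transcriptional loop. ARNTL (BMAL1) pairs with CLOCK or NPAS2 to drive genes through E-box sequences, among them the Per and Cry repressors, the REV-ERB receptors Nr1d1 and Nr1d2 and the PAR bZIP factors Dbp, Tef and Hlf, and REV-ERBs repress Arntl and Npas2 through ROR elements. Daily feeding, body temperature and glucocorticoid hormone act on liver genes beside the loop, and liver metabolism of glucose, fat, bile acids and foreign compounds is known to follow the time of day.

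Of 55471 genes in the count table, 32791 had a read and 14456 passed the expression filter and were tested. In the quasi-likelihood test of edgeR with Benjamini-Hochberg adjustment over all tested genes, 1462 genes passed an adjusted p of 0.05, which is 10.1% of those tested. Of these, 791 (5.47%) rose and 671 (4.64%) fell between ZT6 and ZT12. The changes were mostly modest, with a median log2 fold change of 0.56 among genes that rose and -0.57 among genes that fell, while 141 rose and 135 fell by more than 2-fold. Over all tested genes the median was -0.003, with an interquartile range of -0.16 to 0.17. In 2629 genes (18.2%), called or not, the 4 ZT12 libraries did not overlap the 4 ZT6 libraries, with ZT12 higher in 9.62% and lower in 8.56% of tested genes, while the groups of 144 called genes did overlap. Total counts were 14524032 to 20782403 per library at ZT6 and 11903471 to 15530817 at ZT12. The 8 libraries separated on the first principal component of all 32, which held 16.7% of the variance, at -16.8 to -23.0 for ZT6 and 12.8 to 15.9 for ZT12. The labels do not say more about each animal than its group and number. The p-values come from 1 fit of all 32 libraries. The spread they measure is that between livers within all 8 groups, not within the ZT6 and ZT12 groups under SL alone.

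Most clock genes passed the test. Of 19 clock and clock output genes, all tested, 4 rose and 9 fell, 68.4% of the list against 10.1% of all tested genes, with a median log2 fold change of -0.52. Among the activators Npas2 and Arntl rose. Npas2, a partner of ARNTL, was almost silent at ZT6, with 0.131, 0.0693, 0 and 0 CPM in the 4 libraries, and reached 5.36, 12.9, 13.6 and 9.8 CPM at ZT12. That is 3 reads in all at ZT6 against 582 at ZT12, a ratio of 249 per read sequenced with a 95% interval of 85 to 1210 that covers counting error only. Arntl, the central activator, measured 7.98, 10.5, 21.6 and 14.7 CPM at ZT6 and 37.8, 41.3, 36.6 and 38.8 CPM at ZT12, a log2 fold change of 1.48 ± 0.23 (edgeR adjusted p = 5.59e-05). The groups did not overlap, and the ZT12 livers lay within a far narrower band than the ZT6 livers. Clock itself, the other partner, was 36.4 to 60.9 CPM at ZT6 and 41.9 to 64.2 CPM at ZT12 with a log2 fold change of 0.15 ± 0.19, and did not pass the test. Cry1, a late-phase repressor, rose by 0.50 ± 0.13 on the log2 scale, and Nfil3, a repressor at D-boxes, by 0.48 ± 0.13. Without SL ZT6 replicate 1 neither passed (edgeR adjusted p = 0.0571 and 0.0659), leaving 2 risen clock genes, and Cry1 was also lost without SL ZT12 replicate 3 (0.0509) and Nfil3 without SL ZT6 replicate 2 (0.0691).

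Most of the other calls were falls among repressors and clock outputs, with the repressors Cry1 and Nfil3 as rises. Ciart, a repressor of the CLOCK:ARNTL pair, showed the largest drop of the genes named here, from 13.7, 25.4, 8.44 and 19.7 CPM to 1.64, 0.468, 0.971 and 0.879 CPM (log2 fold change -4.09 ± 0.50, edgeR adjusted p = 1.12e-06). Per1 went from 42.9, 54.5, 43.2 and 55.3 CPM to 10.3, 6.63, 7.57 and 11 CPM (-2.46 ± 0.29), and Per3 from 47.7 to 72.1 CPM down to 9.84 to 17.4 CPM (-2.21 ± 0.25). Per2 fell less, from 67.2 to 108 CPM to 39.5 to 66.7 CPM (-0.70 ± 0.18), and its groups were separated by under 1 CPM. The REV-ERB genes both fell, Nr1d2 from a mean of 62.1 ± 10.5 (SD) to 12.7 ± 2.43 CPM and Nr1d1 from 12.5 ± 3.07 to 3.59 ± 1.42 CPM. Among the PAR bZIP factors, Dbp dropped from 24.3, 23.4, 11.8 and 16.8 CPM to 2.94, 1.95, 3.04 and 3.58 CPM (-2.71 ± 0.42), Tef fell by 1.31 ± 0.14 on the log2 scale and Hlf by 0.52 ± 0.15. Per2 and Hlf were the calls near the threshold. Per2 was lost without SL ZT12 replicate 2 (edgeR adjusted p = 0.0613), and Hlf without SL ZT6 replicate 1 or 2 or SL ZT12 replicate 2 or 4 (0.0561 to 0.0704). SL ZT6 replicate 3 had the ZT6 level closest to ZT12 for Arntl, Ciart, Dbp, Nr1d1, Per2 and Per3. Cry2, Rora, Bhlhe40 and Bhlhe41 did not pass. Dbp and Nr1d1 share exon bases with Sphk2 and Thra on the opposite strand, and the sources used here do not say whether counting used strand, so reads of such partners may be mixed.

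**Figure D1:**
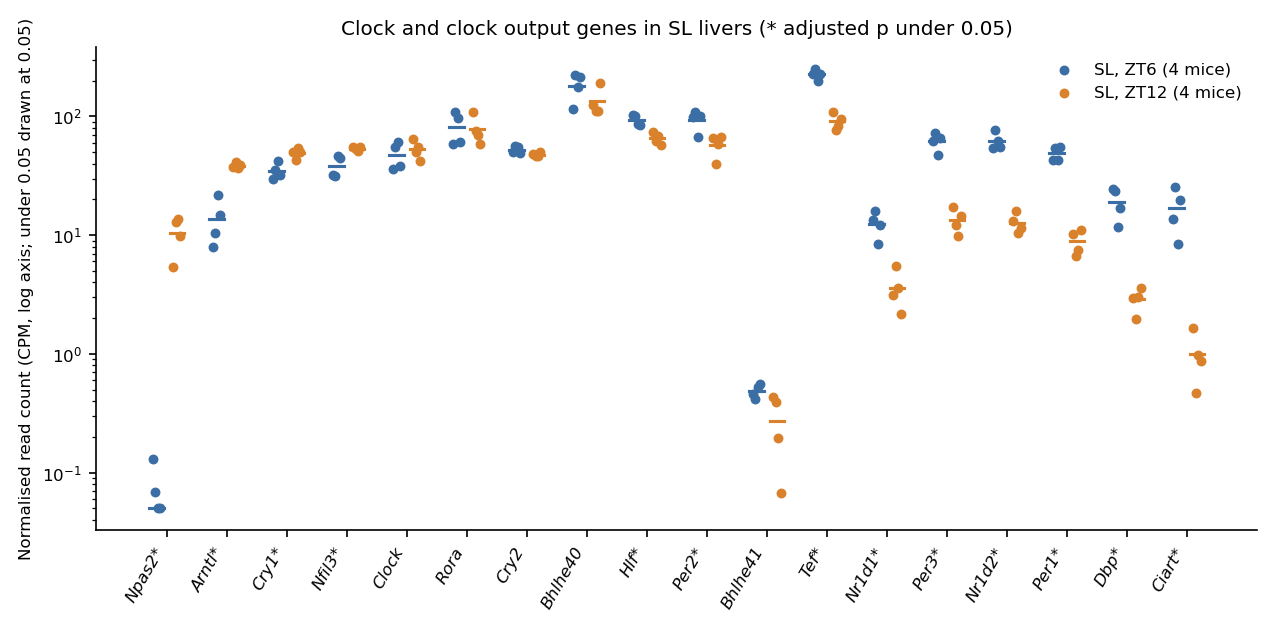
Normalised read count (CPM, log axis) of the clock and clock output genes named above in the 4 ZT6 (blue) and 4 ZT12 (orange) livers under short light, 1 point per mouse with a bar at the mean, ordered by fold change. Npas2, Arntl, Cry1 and Nfil3 rose and 9 genes from Hlf to Ciart fell (asterisks, edgeR adjusted p under 0.05), and values under 0.05 CPM are drawn at 0.05.

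Some promoters of these genes hold sequences that clock factors are known to bind. Among the risen clock genes with a window, 1 of 4 held an E-box (Cry1), 0 a D-box and 2 a ROR element (Arntl and Nfil3). Among the fallen, 3 of 8 held an E-box (Ciart, Per1 and Tef), 2 a D-box (Per1 and Per3) and 0 a ROR element. For each kind and gene 1 match is printed where it lies before the start site, which leaves out Arntl. Ciart and Tef held further E-boxes and Per3 a further D-box, which are not printed as matches. The printed flank of Ciart holds a further E-box in lower case. The windows come from RefSeq on GRCm38.p6, run from 250 bases before to 50 after each start site, and cover 10484 tested genes. Both strands were searched for the E-box CACGTG, the D-box TTATGNAA and the ROR element TAGGTCA, and capitals mark the match, with up to 20 bases on either side and none past the start site, 5′ to 3′ on the gene's strand.
Cry1 (chr10:85185089-85185134, reverse strand, E-box): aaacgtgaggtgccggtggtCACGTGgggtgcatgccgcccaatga
Ciart (chr3:95882247-95882292, reverse strand, E-box): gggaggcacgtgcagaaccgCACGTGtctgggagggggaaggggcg
Per1 (chr11:69098763-69098808, forward strand, E-box): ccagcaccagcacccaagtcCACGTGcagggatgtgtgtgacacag
Tef (chr15:81802526-81802571, forward strand, E-box): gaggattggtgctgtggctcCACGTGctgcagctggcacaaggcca
Per1 (chr11:69098905-69098948, forward strand, D-box): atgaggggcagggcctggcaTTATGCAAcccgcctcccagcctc
Per3 (chr4:151044843-151044890, reverse strand, D-box): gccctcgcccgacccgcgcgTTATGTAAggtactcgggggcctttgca
Nfil3 (chr13:52981040-52981071, reverse strand, ROR element): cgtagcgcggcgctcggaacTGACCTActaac
The E-box was present in 11.5% of all tested genes with a window, in 10.3% of the 592 that rose and in 12.7% of the 503 that fell, in 12.0% of the 83 that rose and in 17.4% of the 86 that fell by more than 2-fold. For the D-box the shares were 2.78% of all, 3.72% of risen, 5.77% of fallen genes, with 7.23% of the 83 risen and 12 of the 86 fallen by more than 2-fold. The ROR element was in 2.57% of all genes, 3.89% of risen and 2.19% of fallen genes, with 6.02% and 1.16% of those changed by more than 2-fold. The Nfil3 match is the reverse complement of the searched letters, and a match to so few letters is a description, not a bound site.

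The largest changes were ranked among called genes with a mean of at least 1 CPM and no overlap between the groups. Among the 12 largest rises so ranked were Npas2, Pitx3, Slc34a2, Srcin1, Elovl3, Atp2b2, Spon2, Ppard, Clic3, Loxl4 and Osgin1. Elovl3, which elongates very long chain fatty acids, went from 77.5, 115, 114 and 108 CPM to 734, 516, 534 and 507 CPM (log2 fold change 2.47 ± 0.23, edgeR adjusted p = 1.06e-08). Ppard, a nuclear receptor for fatty acids, went from 10.8, 13, 12.9 and 15.1 CPM to 57.5, 55.3, 57.5 and 58.8 CPM (2.14 ± 0.15). It had the smallest p of all tested genes (edgeR adjusted p = 1.06e-10), with a spread at ZT12 of 1.48 CPM (SD) around a mean of 57.3 CPM. Osgin1, an oxidative stress response gene, rose from 36.1, 91.2, 91.7 and 89 CPM to 338, 304, 278 and 342 CPM (2.03 ± 0.30), with SL ZT6 replicate 1 well below its group. Spon2, a secreted matrix protein, rose from 4.99 to 10.8 CPM to 26.2 to 45.3 CPM (2.30 ± 0.26). Slc34a2, Srcin1, Atp2b2, Clic3 and Loxl4 were low genes, with means of 0.21 to 1.31 CPM at ZT6 and 1.24 to 5.56 CPM at ZT12. Pitx3 overlaps Elovl3 by 10 exon bases on the opposite strand and its value, 0.524 to 0.913 CPM at ZT6 and 3.04 to 6.39 CPM at ZT12, is uncertain for that reason.

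The largest falls by the same ranking, after Ciart, were Noct, Usp2, Ppp1r3g, Dbp, Gtpbp4-ps1, Lpin1, Mt2, Per1, Alas1, Ttll8 and Upp2. Noct, a rhythmic phosphatase of NADP cofactors, went from 60.6, 68.6, 32.3 and 66.2 CPM to 12.6, 3.98, 5.18 and 6.42 CPM (-3.03 ± 0.44). Usp2, a deubiquitinase with a strong daily rhythm, went from 46.1, 48.9, 32.3 and 46.1 CPM to 7.43, 4.05, 3.82 and 6.36 CPM (-3.01 ± 0.28, edgeR adjusted p = 1.1e-08). In both genes SL ZT6 replicate 3 was the lowest ZT6 liver and still lay above every ZT12 liver. Upp2, which splits uridine, fell from 668, 870, 633 and 824 CPM to 197, 117, 134 and 156 CPM (-2.31 ± 0.20), while Tymp, which splits thymidine, rose by 0.89 ± 0.15 and the 8 other genes of uridine and pyrimidine breakdown did not pass. Gtpbp4-ps1 is a pseudogene whose reads may belong to its parent, and Usp2 shares 200 exon bases with a predicted gene on the opposite strand, so both are uncertain. Among other named genes, Arntl, Tef, Alas1, Mt2, Foxo1, Sds, Cebpb and, over a long stretch, Nr1i3 share exon bases with an annotated gene on the opposite strand, and Tymp with Sco2 on its own strand.

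Of 16 tested genes of gluconeogenesis and the fasting response 8 fell, 0 rose and 8 did not pass, where 4.64% of all tested genes fell, with a median of -0.62. Pck1, the enzyme that commits carbon to glucose synthesis, went from 3220, 3750, 3830 and 3130 CPM to 1540, 932, 1110 and 926 CPM (-1.63 ± 0.23, edgeR adjusted p = 1.07e-05). Sds, which turns serine into pyruvate, fell from 167 to 218 CPM to 52 to 66.5 CPM (-1.72 ± 0.19). The factors Foxo1 (-0.88 ± 0.14) and Klf15 (-0.85 ± 0.12), which turn on such genes in fasting, fell with them, as did Got1, Ppargc1a, Tat and Cebpb. G6pc, the last step of glucose release, was 537 to 1020 CPM at ZT6 and 511 to 662 CPM at ZT12 and did not pass (-0.43 ± 0.29). Foxo3, in the list of the insulin, growth hormone and IGF axis, fell by 0.79 ± 0.10 on the log2 scale. Stat5b, which relays growth hormone signals, rose by 0.40 ± 0.09. The other 16 genes of that axis did not pass, with 2 rises in place of 1 without SL ZT6 replicate 3 or 4 or SL ZT12 replicate 4. The called share of that list was 11.1%, near the 10.1% of all tested genes.

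Glycogen and glycolysis genes moved both ways. Of 19 tested genes 2 rose and 5 fell (36.8% called, against 10.1% of all tested genes), with a median of -0.10. The glycogen-targeting subunits of protein phosphatase 1 parted: Ppp1r3c rose from 48.9, 74, 63 and 53.9 CPM to 196, 164, 178 and 189 CPM (1.6 ± 0.24). Ppp1r3g fell from 2.94, 3.19, 6.86 and 1.37 CPM to 0.432, 0.779, 0.388 and 0.27 CPM (-2.96 ± 0.65), and Ppp1r3b fell by 0.50 ± 0.16. Gys2, the liver glycogen synthase, fell from 234 to 346 CPM to 163 to 183 CPM (-0.75 ± 0.11). Pfkfb3 (-2.29 ± 0.38) and Pfkfb1 (-0.61 ± 0.14), which set the level of the glycolysis activator fructose 2,6-bisphosphate, fell, and Gckr rose by 0.27 ± 0.07. The 2 rises became 1 without SL ZT6 replicate 2, SL ZT12 replicate 2 or SL ZT12 replicate 3.

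Genes of fat synthesis and fat burning had more falls than rises, though most did not pass. Of 23 tested genes of fatty acid and triglyceride synthesis 2 rose, 7 fell and 14 did not pass. That is 39.1% called, against 10.1% of all tested genes, and the list's median was -0.07. Lpin1, a phosphatidate phosphatase and coregulator, went from 488, 558, 382 and 839 CPM to 119, 78.8, 83.6 and 104 CPM (-2.56 ± 0.28, edgeR adjusted p = 1.34e-07), and Lpin2 from 380 to 620 CPM to 164 to 242 CPM (-1.29 ± 0.19). Fads2, a desaturase of polyunsaturated fatty acids, fell from 4490, 3250, 3630 and 2590 CPM to 1900, 2000, 1740 and 1920 CPM (-0.88 ± 0.14). The livers at ZT6 spread over a wide range for Fads2 and over a narrow one at ZT12. Thrsp, Acss2, Dgat2 and Fads1, the last with overlapping groups, also fell, and Agpat2 rose beside Elovl3. Of 28 tested genes of fatty acid oxidation and ketone synthesis 7 fell, 0 rose and 21 did not pass, with a median of -0.26 and 25 values below 0. Cpt1a, which admits fatty acids to mitochondria, went from 1130, 868, 930 and 750 CPM to 570, 580, 498 and 539 CPM (-0.75 ± 0.12), Ppargc1a, a coactivator of mitochondrial genes, fell by 0.81 ± 0.18, and the thioesterase Acot4 by 1.02 ± 0.24. Acot3 (-2.06 ± 0.50) is a near copy of its neighbour Acot1 and is uncertain. The count of 7 became 4 without any 1 of SL ZT6 replicates 1 and 3 and SL ZT12 replicates 1, 2 and 3. The count of 0 rises became 1 without SL ZT6 replicate 3. Pdk4, which shuts glucose out of oxidation, was 8.97, 6.31, 30.8 and 7.05 CPM at ZT6 and 37.5, 40.6, 25.4 and 23.7 CPM at ZT12 and missed the threshold (1.23 ± 0.42, edgeR adjusted p = 0.0595), with SL ZT6 replicate 3 inside the ZT12 range.

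Of 14 tested lipid droplet genes 4 fell, 1 rose and 9 did not pass (35.7% called against 10.1% of all tested genes). Pnpla2, the first lipase of stored fat, fell from 51.9 to 68.6 CPM to 34.1 to 40.3 CPM (-0.72 ± 0.12) and Fitm2, which helps droplets form, from 88.9 to 127 CPM to 54.4 to 65.6 CPM (-0.78 ± 0.13). The other falls, the droplet coat genes Plin4 (-1.0 ± 0.26) and Cidec (-1.01 ± 0.28), did not pass without SL ZT6 replicate 1 (edgeR adjusted p = 0.0625 and 0.15), where Cidec's value moved to -0.62, or without SL ZT12 replicate 1 (0.0507 and 0.0516), leaving 2 falls. Cidec, whose groups overlap, was also lost without SL ZT12 replicate 2 or 3 (0.0642 and 0.0709). Plin2, the main droplet coat of hepatocytes, was the 1 rise (0.45 ± 0.14), with overlapping groups, and was lost without SL ZT6 replicate 2 or 4 or SL ZT12 replicate 1 or 3.

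Bile acid and sterol transport genes changed in a few steps. Cyp7a1, the rate-limiting enzyme of bile acid synthesis, went from 403, 422, 182 and 441 CPM to 91, 126, 86.8 and 134 CPM (-1.73 ± 0.33, edgeR adjusted p = 0.000518). SL ZT6 replicate 3 lay between the others and ZT12. The partner subunits of the sterol exporter, Abcg5 (-0.76 ± 0.12) and Abcg8 (-0.74 ± 0.12), which are neighbours and share 82 exon bases on opposite strands, fell, while the bile salt pump Abcb11 rose from 412 to 460 CPM to 650 to 760 CPM (0.69 ± 0.11) and the conjugating enzyme Baat by 0.29 ± 0.07. That made 2 rises and 3 falls among 19 tested genes (26.3% called, against 10.1% of all tested genes). Of 25 genes of cholesterol synthesis and uptake, 1 rose (Mvd, 0.91 ± 0.27) and 2 fell (Nsdhl, -0.50 ± 0.10, and Msmo1, -0.46 ± 0.14), which is 12.0% of the list and near the 10.1% of all tested genes. Mvd was lost without SL ZT6 replicate 1, 2 or 3 or SL ZT12 replicate 1 (edgeR adjusted p = 0.0749 to 0.1), and Msmo1 without SL ZT6 replicate 2 or 4 or SL ZT12 replicate 3 or 4 (0.0873 to 0.0998).

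Amino acid enzymes also divided. Of 24 tested genes of amino acid breakdown and the urea cycle 3 rose and 6 fell (37.5% called, against 10.1% of all). Cbs, which starts the conversion of homocysteine to cysteine, rose from 250 to 299 CPM to 404 to 470 CPM (0.67 ± 0.09), and Gldc, of the glycine cleavage system, from 285 to 376 CPM to 481 to 551 CPM (0.70 ± 0.13). Hal, the first enzyme of histidine breakdown, rose by 0.38 ± 0.11. Arg1, which releases urea, fell from 1480 to 1810 CPM to 1090 to 1210 CPM (-0.51 ± 0.10), together with Sds, Prodh, Tat and Asl.

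**Figure D2:**
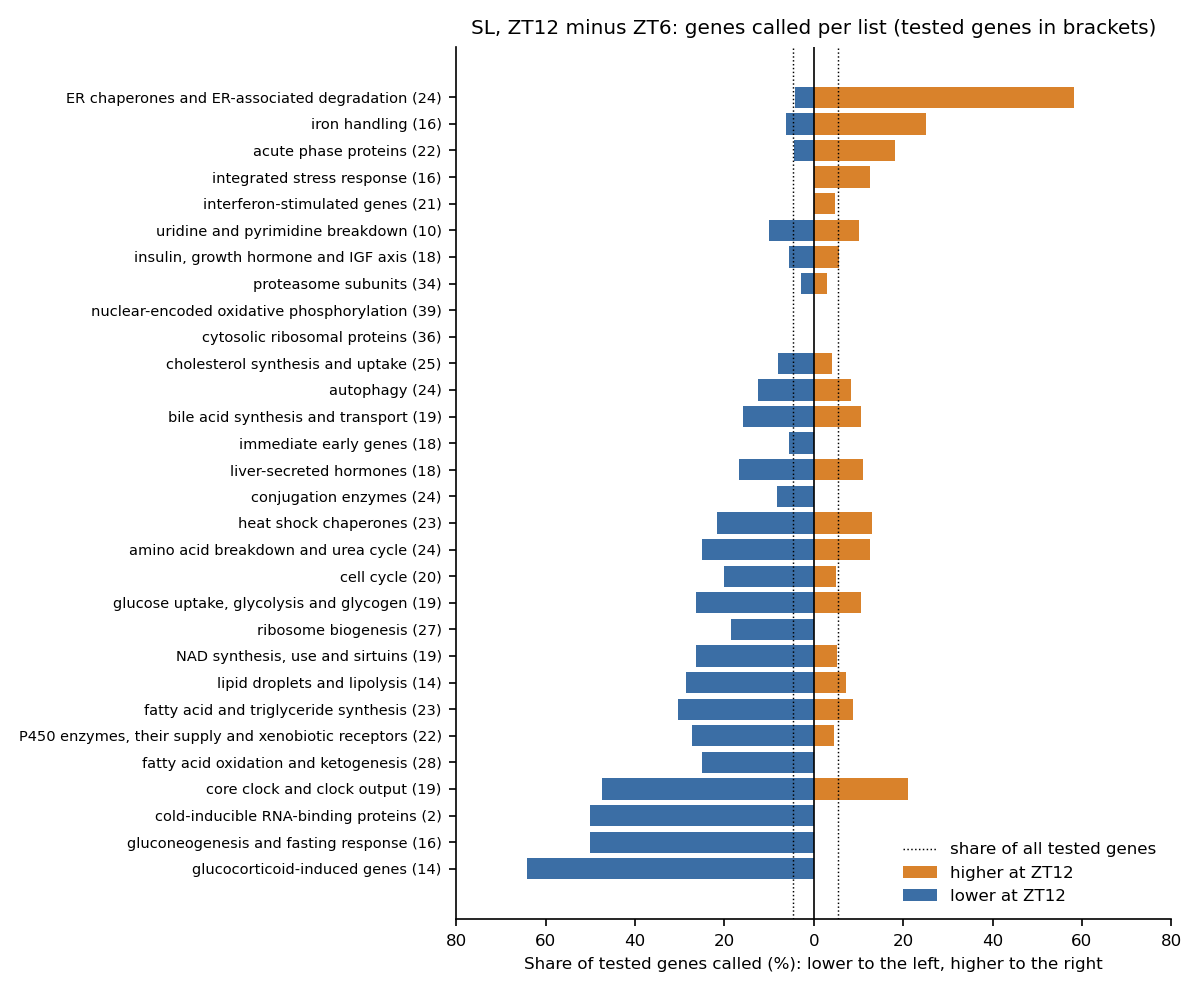
Share of tested genes (%) that rose (orange, right) or fell (blue, left) from ZT6 to ZT12 in each of 30 gene lists, with the number of tested genes in brackets and dotted lines at the shares of all tested genes (5.47% and 4.64%). Chaperones of the endoplasmic reticulum lie furthest to the right with 14 of 24 genes higher, and glucocorticoid-induced genes furthest to the left with 9 of 14 genes lower.

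Of 14 tested genes known to be induced by glucocorticoids, 9 fell and 0 rose, with a median of -0.81. That is 64.3% of the list, against 10.1% of all tested genes. Values above 0 were found in 2 of the 14 genes, the highest at 1.23, and did not pass. Fkbp5, a feedback regulator of the glucocorticoid receptor, went from 93.8, 101, 87.9 and 133 CPM to 42.2, 29.7, 33.4 and 42.4 CPM (-1.49 ± 0.24, edgeR adjusted p = 6.68e-05). Zbtb16, a transcription factor, went from 69.5, 49.8, 59.6 and 62.9 CPM to 33.5, 18.2, 16.7 and 20.3 CPM (-1.45 ± 0.30). In both genes the ZT6 and ZT12 livers were fully apart. Tat, a tyrosine aminotransferase, was 2140 to 2840 CPM at ZT6 and 1950, 1070, 1190 and 1100 CPM at ZT12 (-0.87 ± 0.21), with SL ZT12 replicate 1 near the ZT6 livers. The same ZT12 liver was the highest of its group for Zbtb16 and for Tsc22d3 (156 CPM against 95.4 to 103), whose groups overlap. Mt1 (-1.73 ± 0.47) and Mt2 (-2.49 ± 0.69), metal-binding proteins, fell, the latter from 6.66 to 9.64 CPM to 0.864 to 1.69 CPM, and Mt2 was lost without SL ZT12 replicate 1 (edgeR adjusted p = 0.0532). Per1, Errfi1 and Klf9 completed the 9. Per1 and Tat stand in other lists here as well. The 0 rises became 2 without SL ZT6 replicate 3.

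Chaperones of the endoplasmic reticulum (ER) were the list that rose most. These proteins fold secreted proteins, and they are known targets of the unfolded protein response, which works through ATF6 and XBP1. Of 24 tested genes 14 rose and 1 fell (62.5% of the list), 22 of 24 values were above 0, and the median was 0.52. Hspa5 (BiP), the main ER chaperone, went from 404, 519, 383 and 597 CPM to 1140, 864, 835 and 1170 CPM (1.07 ± 0.15, edgeR adjusted p = 8.32e-06). Manf, a secreted ER stress protein, went from 25.9, 34.3, 24.4 and 43 CPM to 92.1, 76, 72.8 and 114 CPM (1.48 ± 0.18). Both genes had SL ZT12 replicates 1 and 4 above replicates 2 and 3, and all ZT12 livers above all ZT6 livers. Pdia4, a disulfide isomerase, rose from 115 to 136 CPM to 209 to 279 CPM (0.99 ± 0.11) and Hyou1, an exchange factor for BiP, from 66 to 104 CPM to 174 to 249 CPM (1.34 ± 0.20). Sdf2l1 had the largest rise of the list (1.73 ± 0.28), and Calr, Creld2, Syvn1, Pdia3, Hsp90b1, Dnajb11, Xbp1, Pdia6 and Dnajb9 rose by 0.33 to 1.09 on the log2 scale. Herpud1, which takes part in ER-associated degradation, was the exception, from 375, 543, 409 and 451 CPM to 353, 220, 215 and 280 CPM (-0.73 ± 0.16). The 14 rises were 12 to 14 with any 1 library of the 8 left out. Of the integrated stress response, the other branch that ER stress can engage, 2 of 16 tested genes rose, Atf5 (0.79 ± 0.11) and the low gene Nupr1 (1.42 ± 0.31), and 0 fell, with a median of -0.02. That is 12.5% of the list, near the 10.1% of all tested genes.

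The ER stress element is CCAAT and CCACG spaced by 9 bases. As the known site of ATF6 and its partners, it is printed with 1 match for each risen ER gene that holds it. It was found on either strand in 20 of 10484 tested genes with a window (0.191%), in 8 of the 592 that rose (1.35%) and 0 of the 503 that fell. Of 12 risen ER genes with a window 6 held it. Capitals mark the match, which in Calr and Creld2 is the reverse complement. Hsp90b1 held another match, also a reverse complement, that is not printed.
Hspa5 (chr2:34772005-34772063, forward strand): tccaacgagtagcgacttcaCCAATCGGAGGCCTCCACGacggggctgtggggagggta
Hsp90b1 (chr10:86705618-86705676, reverse strand): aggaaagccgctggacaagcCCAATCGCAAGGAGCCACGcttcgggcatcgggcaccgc
Pdia6 (chr12:17266471-17266529, forward strand): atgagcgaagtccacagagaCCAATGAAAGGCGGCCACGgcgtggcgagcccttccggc
Syvn1 (chr19:6046512-6046570, forward strand): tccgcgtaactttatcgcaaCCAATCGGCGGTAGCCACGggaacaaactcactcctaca
Calr (chr8:84847055-84847113, reverse strand): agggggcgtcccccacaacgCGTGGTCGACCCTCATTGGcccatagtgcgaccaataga
Creld2 (chr15:88819500-88819558, forward strand): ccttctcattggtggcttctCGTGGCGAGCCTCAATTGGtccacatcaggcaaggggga
Among these 6 genes the rises ran from 0.33 ± 0.08 in Pdia6 to 1.09 ± 0.18 in Creld2.

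Cytosolic heat shock chaperones did not follow the ER genes as a group. Of 23 tested 3 rose and 5 fell (34.8% called, against 10.1% of all tested genes), with a median of -0.12. Hspa8, the constitutive HSP70, went from 479, 549, 509 and 578 CPM to 321, 300, 333 and 397 CPM (-0.65 ± 0.14). The inducible HSP70 genes Hspa1b (7.92 to 12.1 CPM down to 3.04 to 4.53 CPM, -1.54 ± 0.31) and Hspa1a (-1.99 ± 0.46) also fell, though they are near-identical copies whose reads may be split. Dnaja1 and Hspb8 fell by 0.46 ± 0.12 and 0.48 ± 0.13. The HSP90 gene Hsp90ab1 rose from 627 to 701 CPM to 798 to 932 CPM (0.38 ± 0.08), Hspb1, a small heat shock protein, from 1.51 to 2.64 CPM to 5.18 to 6.56 CPM (1.48 ± 0.21), and Fkbp4, an HSP90 cochaperone, by 0.28 ± 0.08. The cold-inducible gene Rbm3 fell from 22.2 to 29.4 CPM to 16.8 to 20.5 CPM (-0.46 ± 0.10), and its relative Cirbp, 11.8 to 13.9 CPM at ZT6 and 14.6 to 19.1 CPM at ZT12, did not pass (0.36 ± 0.15, edgeR adjusted p = 0.142).

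**Figure D3:**
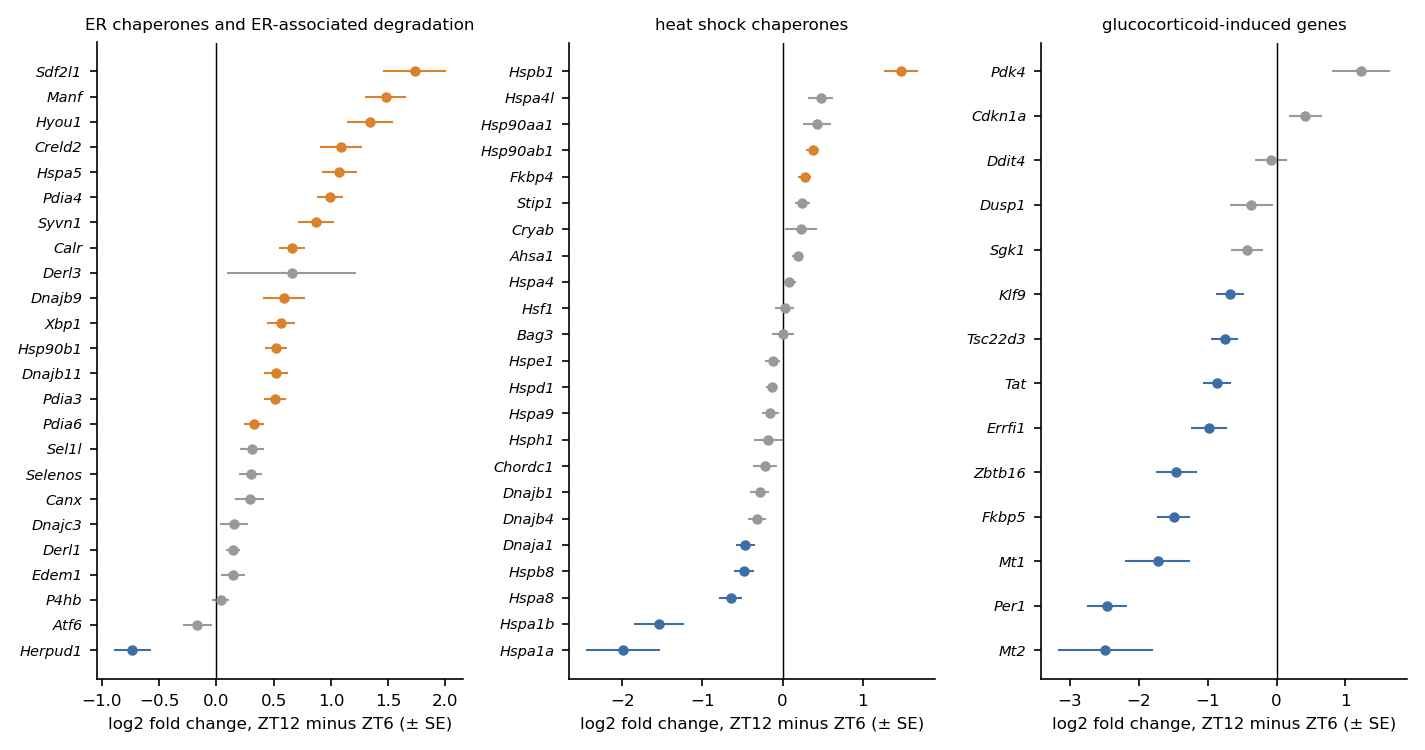
Log2 fold change of ZT12 over ZT6 with its SE for each tested gene of 3 lists, with orange for genes that rose, blue for genes that fell and grey for genes that did not pass. ER chaperones lie mostly right of 0 (14 of 24 rose), heat shock chaperones on both sides (3 rose and 5 fell of 23) and glucocorticoid-induced genes mostly left (9 of 14 fell).

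The list of P450 enzymes, genes that supply them and xenobiotic receptors also holds Ppard, the fatty acid receptor named above. Of its 22 tested genes 6 fell, 1, Ppard, rose and 15 did not pass (31.8% called, against 10.1% of all tested genes). The rises were 2 without SL ZT6 replicate 4 or SL ZT12 replicate 2. Por, the reductase that feeds electrons to microsomal P450 enzymes, went from 462, 597, 448 and 612 CPM to 161, 128, 115 and 145 CPM (-1.95 ± 0.18, edgeR adjusted p = 7.37e-09). Alas1, the rate-limiting enzyme of haem synthesis, went from 570, 629, 477 and 1260 CPM to 75.9, 66.3, 118 and 299 CPM (-2.39 ± 0.50). Replicate 4 was the highest liver of Alas1 at either time, and the groups did not overlap. The drug-sensing receptors Nr1i2 (PXR, -0.75 ± 0.09) and Nr1i3 (CAR, -0.72 ± 0.16) fell, and so did Cyp2a5 (471, 510, 406 and 469 CPM down to 242, 192, 176 and 210 CPM). Cyp2a4, a near copy of Cyp2a5 whose reads may be misplaced, was 55.6, 1.46, 19.4 and 1.47 CPM at ZT6 and 0.935 to 2.65 CPM at ZT12, with SL ZT6 replicates 2 and 4 inside the ZT12 range. Of 24 conjugation enzymes 2 fell and 0 rose, 8.33% of the list against 10.1% of all tested genes: Papss2, which makes activated sulfate, from 320 to 356 CPM to 179 to 219 CPM (-0.78 ± 0.09), and Sult1d1 (-0.41 ± 0.12), which was lost without any 1 of SL ZT6 replicates 2, 3 and 4 and SL ZT12 replicates 2, 3 and 4 (edgeR adjusted p = 0.071 to 0.127).

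Of 19 tested genes of NAD synthesis and use 5 fell and 1 rose (31.6% called, against 10.1% of all tested genes). Nampt, the rate-limiting enzyme of NAD salvage and a known clock target, went from 127, 145, 113 and 132 CPM to 61.8, 50.4, 54.2 and 59.7 CPM (-1.19 ± 0.14), and Nmrk1, which uses nicotinamide riboside, from 32.2 to 44.9 CPM to 13.2 to 17.6 CPM (-1.34 ± 0.17). Nadsyn1 (-0.42 ± 0.08), Nmnat1 (-0.31 ± 0.07) and the deacetylase Sirt3 (-0.25 ± 0.07) fell less. The 1 rise, Kynu (0.26 ± 0.08), was lost without SL ZT6 replicate 1 or SL ZT12 replicate 1, 3 or 4.

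Among 18 tested liver-secreted hormones 2 rose and 3 fell (27.8% called, against 10.1% of all tested genes). Nrg4, a growth factor of fat and liver, went from 36, 33.8, 25.4 and 32 CPM to 9.67, 6.31, 8.87 and 8.38 CPM (-1.93 ± 0.15, edgeR adjusted p = 5.1e-10), but it shares 368 exon bases with Fbxo22 on the opposite strand. Angptl4, which inhibits lipoprotein lipase, fell from 115 to 139 CPM to 48 to 64.4 CPM (-1.16 ± 0.20), and Tsku fell with overlapping groups (-1.13 ± 0.35). The activin subunit genes Inhba (1.07 ± 0.28) and Inhbc (0.38 ± 0.09) rose, and Inhba was lost without SL ZT6 replicate 3 or SL ZT12 replicate 4 (edgeR adjusted p = 0.0534 to 0.0692), leaving 1 rise. Fgf21, a fasting hormone, was 13.7 to 33.1 CPM at ZT6 and 29.1 to 49.2 CPM at ZT12 and did not pass (0.57 ± 0.25).

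Of 22 acute phase genes 4 rose and 1 fell (22.7% called, against 10.1% of all tested genes). The rises were the 3 fibrinogen chains, Fga (0.59 ± 0.12), Fgb (0.54 ± 0.12) and Fgg (0.59 ± 0.11), and Crp (0.28 ± 0.08), which was lost without SL ZT6 replicate 1 or SL ZT12 replicate 1 or 4 (edgeR adjusted p = 0.0519 to 0.068). Fga was 2740, 3070, 3330 and 3360 CPM at ZT6 and 4510, 5000, 4540 and 4770 CPM at ZT12. The fall was Saa4 (-0.48 ± 0.14), lost without SL ZT6 replicate 2 or SL ZT12 replicate 2 or 3. Of 16 iron genes 4 rose and 1 fell (31.2% called). The ferrireductase Steap3 (0.58 ± 0.11), the hepcidin regulator Hfe2 (0.46 ± 0.10), the haem-splitting Hmox1 (0.40 ± 0.11) and the iron transporter Slc11a2 (0.36 ± 0.11) rose. The transporter Slc39a14 fell from 304 to 384 CPM to 224 to 270 CPM (-0.57 ± 0.12). Without SL ZT6 replicate 2 or SL ZT12 replicate 3 there were 2 iron rises, and Hmox1 was among those lost (edgeR adjusted p = 0.0685 and 0.0931).

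Among growth and housekeeping lists the called share ran from 0 to 25%, against 10.1% of all tested genes. Of 27 ribosome biogenesis genes 5 fell (Polr1a, Nop56, Nop2, Ncl and Nolc1, by 0.21 to 0.51 on the log2 scale) and 0 rose, with 24 values below 0, a median of -0.21, and 2 falls left without SL ZT6 replicate 4. Nop56 was lost without that library (edgeR adjusted p = 0.0512), and Ncl without it or SL ZT12 replicate 4 (0.057 to 0.0655). Of 36 cytosolic ribosomal protein genes 0 passed in either direction in edgeR or in any alternative run (median -0.003, 0 at an unadjusted p under 0.05). Of 39 nuclear-encoded oxidative phosphorylation genes 0 passed in edgeR, with at most 1 fall in the alternatives and 1 at an unadjusted p under 0.05, but 36 of 39 values lay below 0 with a median of -0.08. Of 34 proteasome genes 1 rose (Psmd11) and 1 fell (Psmd9). Of 24 autophagy genes 2 rose (Sqstm1, 0.36 ± 0.08, and Atg13) and 3 fell (Bnip3, -0.58 ± 0.10, Map1lc3b, -0.35 ± 0.09, and Atg16l1), and 1 rise was left without any 1 library other than SL ZT12 replicate 1 or SL ZT6 replicate 2. Atg16l1 was lost without SL ZT6 replicate 2 or 4 or SL ZT12 replicate 1 or 3 (edgeR adjusted p = 0.0702 to 0.109). Of 20 cell cycle genes Wee1, a mitosis inhibitor under clock control, fell from 19.6 to 24.2 CPM to 8.45 to 10.3 CPM (-1.26 ± 0.21). Mcm7 (0.41 ± 0.12) rose and Ccne2, Mcm5 and Mcm6 fell, and the 4 falls became 1 without SL ZT6 replicate 3 or SL ZT12 replicate 3 and 2 without SL ZT6 replicate 1 or SL ZT12 replicate 1 or 2. Ccne2 and Mcm5 were each lost in several of these fits (edgeR adjusted p = 0.0597 to 0.131 and 0.0509 to 0.175). The Mcm7 rise was lost without SL ZT6 replicate 2 or SL ZT12 replicate 3 (0.0728 to 0.105), and there were 2 rises without SL ZT6 replicate 3. Of 18 immediate early genes Maff fell (-0.90 ± 0.28) with overlapping groups, and it was lost without SL ZT6 replicate 2 or 3 or SL ZT12 replicate 1, 2 or 3 (0.0653 to 0.189). Of 21 interferon-stimulated genes Oasl1 rose (0.54 ± 0.16), and it was lost without SL ZT6 replicate 2 or SL ZT12 replicate 3 (0.107 to 0.16), with 2 rises without SL ZT6 replicate 3, and 17 of the 21 values lay above 0 with a median of 0.17.

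Among cell type lists with tested markers the called share ran from 0 to 50%, against 10.1% of all tested genes. The periportal list had the highest share. In bulk tissue fewer cells of a type and less RNA per cell cannot be told apart. Of 10 hepatocyte genes 1 fell (Tat), and the summed level was 138000 to 152000 CPM at ZT6 and 151000 to 154000 CPM at ZT12. The periportal markers Sds, Pck1 and Arg1, which also stand in the metabolic lists, fell while Hal and Sox9 rose, and the rises were 1 without SL ZT6 replicate 1 or 3 or SL ZT12 replicate 1. The list's sum went from 8480 to 9050 CPM to 5320 to 6340 CPM. The pericentral list had 1 fall of 10, the glutamate transporter Slc1a2 (-0.66 ± 0.17), lost without SL ZT6 replicate 2 or SL ZT12 replicate 3 (the latter with 1 rise in its place), and its sum went from 7700 to 9530 CPM to 5360 to 7460 CPM. Of 12 Kupffer cell and 12 sinusoidal endothelial markers 0 passed in edgeR (1 and 2 at an unadjusted p under 0.05, and 1 Kupffer rise without SL ZT12 replicate 1), with sums of 353 to 445 and 511 to 598 CPM at ZT6 and 417 to 477 and 557 to 628 CPM at ZT12. Of 12 stellate cell markers Pdgfrb (0.70 ± 0.14) and Acta2 (0.97 ± 0.31) rose, Acta2 with overlapping groups, and 1 rise was left without any 1 library other than SL ZT12 replicate 1. Of 5 tested cholangiocyte markers Sox9, also counted as a periportal marker above, rose (1.06 ± 0.22). Of 2 T and NK cell, 4 B cell, 2 neutrophil, 4 erythroid, 7 skeletal muscle and 1 pancreatic acinar markers tested, 0 passed in edgeR, with 1 neutrophil marker at an unadjusted p under 0.05, and 0 of 6 adipocyte markers reached the expression filter. Skeletal muscle markers summed to 0.327 to 0.971 CPM in the 8 livers. The part of cell makeup in the results above was not tested.

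**Figure D4:**
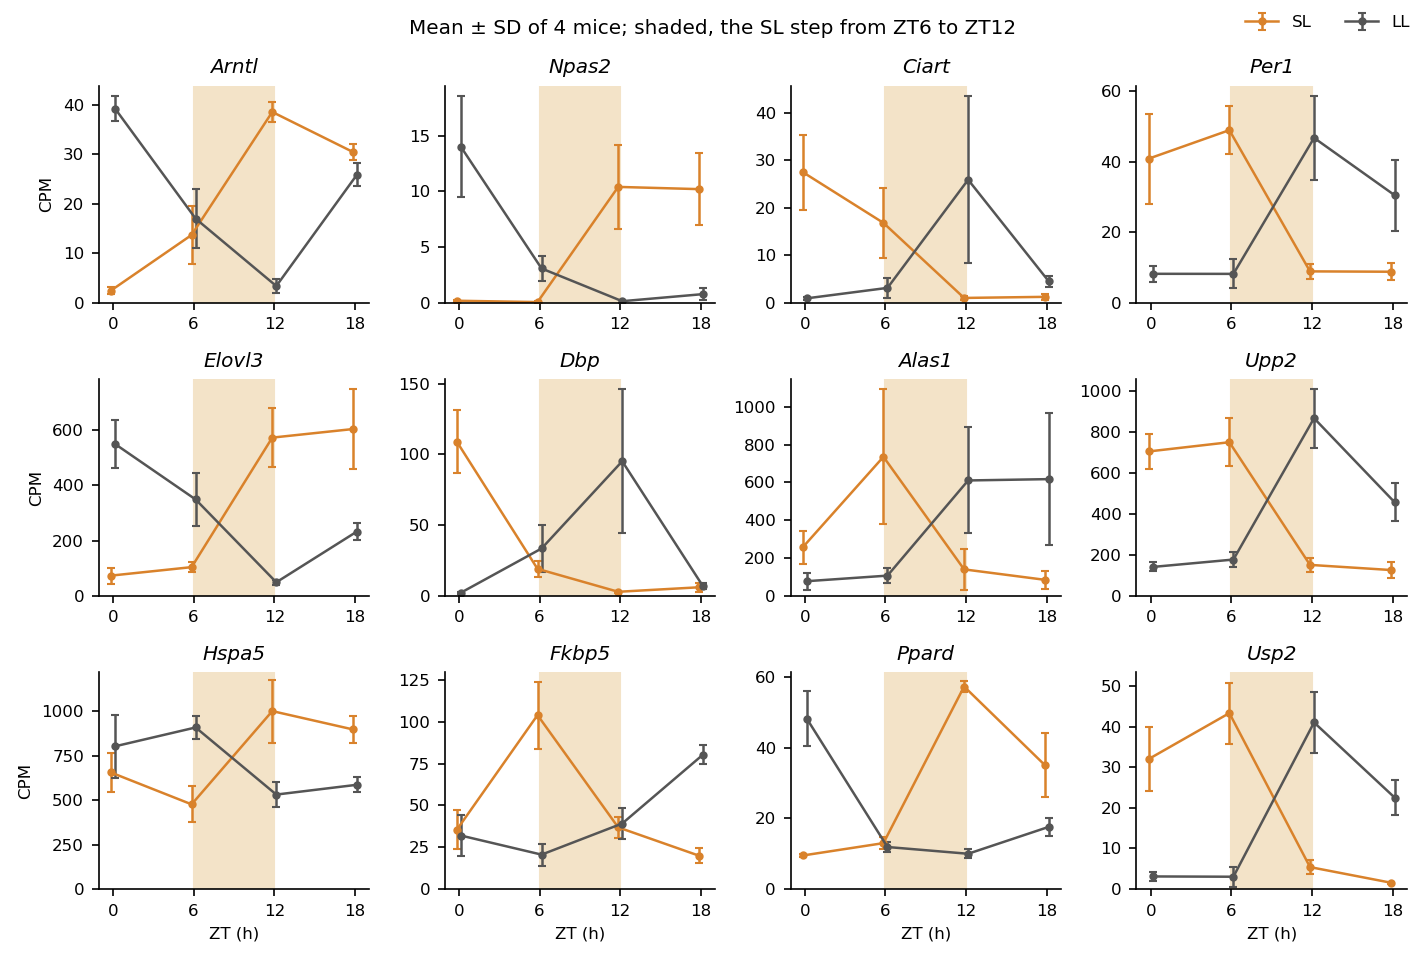
Mean CPM ± SD of 4 mice per time for 12 genes under short light (orange) and long light (grey), with the short light step from ZT6 to ZT12 shaded. Arntl, Npas2, Elovl3, Hspa5 and Ppard rise through the shaded step under short light, and Ciart, Per1, Dbp, Alas1, Upp2, Fkbp5 and Usp2 fall.

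The step stands beside the others of the short light day as follows. The step before, ZT0 to ZT6, called 1180 genes (8.16%; 3.49% higher and 4.68% lower). The step after, ZT12 to ZT18, called 101 (0.699%; 0.242% and 0.457%), and ZT18 to ZT0 called 1035 (7.16%; 3.86% and 3.3%). Each neighbouring step shares 4 livers with the one described, so no overlap is given. The genes that rose had their highest mean at ZT12 in 445 of 791 cases, at ZT18 in 315 and at ZT0 in 31, and the genes that fell had their lowest mean at ZT12 in 315 of 671 cases and at ZT18 in 310, an order that choosing them on ZT6 and ZT12 favours. Single genes differed in whether the change began earlier or went on later. Arntl had a log2 fold change of 2.46 from ZT0 to ZT6, 1.48 in the step and -0.34 from ZT12 to ZT18, while Ppard had 0.46, 2.14 and -0.71. Dbp had -2.52, then -2.71, then 1.07, and Nr1d1 had -2.99, then -1.79, then 3.78. Lpin1, Alas1, Fkbp5, Zbtb16 and Hspa1b had values of 1.84, 1.51, 1.56, 3.59 and 2.2 from ZT0 to ZT6 before the falls described, so their mean levels at ZT6 lay above those at both ZT0 and ZT12.

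Many genes of the step moved the other way between the same ZT labels under long light. From ZT6 to ZT12 the LL livers, which share no library with the SL step, called 1410 genes (9.75%). The library LL ZT12 replicate 3 stood apart from its group, with correlations of log2 CPM of 0.967 to 0.971 to the other 3 against 0.989 to 0.991 among those. Skeletal muscle markers summed to 0.641 to 27.8 CPM at LL ZT6 and 0.719 to 1.44 CPM at LL ZT12, and their part in this step was not tested. Of the 791 genes that rose under SL, 381 fell and 3 rose under LL, and of the 671 that fell under SL, 332 rose and 0 fell. Under LL 724 genes rose (5.01%) and 686 fell (4.75%) in all, so the opposed genes were 48.2% of the SL rises and 55.5% of the LL falls, and 49.5% of the SL falls and 45.9% of the LL rises. The difference between the SL and the LL step passed for 2790 genes (19.3%; 10.1% higher and 9.19% lower under SL), 1359 of the 1462 genes of the SL step among them. That test holds the same SL values that chose the 1462 genes, which favours their passing whatever they did under LL. Without LL ZT12 replicate 3, an alternative chosen after seeing the data, 728 genes rose and 570 fell under LL, 349 of the SL rises fell and 350 of the SL falls rose. The difference then passed for 1588 genes higher and 1677 lower, against 1461 and 1329 with that library. Arntl had 1.48 under SL and -2.37 ± 0.27 under LL, Per1 -2.46 and 2.59 ± 0.29, Elovl3 2.47 and -2.83 ± 0.23, Upp2 -2.31 and 2.29 ± 0.20 and Hspa5 1.07 and -0.77 ± 0.15. Other genes lay nearer 0 or on the same side: Ppard had -0.25 ± 0.15 under LL, Zbtb16 0.41 ± 0.32, Hspb1 -0.22 ± 0.23 and Nr1d1 -0.82 ± 0.28, the last with the same sign in both. Without LL ZT12 replicate 3 the LL value was 0.67 for Zbtb16 and -0.53 for Hspb1, and that of Arntl was -2.14.

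The LL step from ZT18 to ZT0 resembled the SL step from ZT6 to ZT12. It called 706 genes (4.88%), 331 higher (2.29%) and 375 lower (2.59%), again in livers that the SL step does not use. Of the 791 genes that rose under SL, 219 rose and 0 fell there (27.7% of the SL rises and 66.2% of the LL rises), and of the 671 that fell, 234 fell and 0 rose (34.9% of the SL falls and 62.4% of the LL falls). Over the 1462 genes the 2 log2 fold changes had a Pearson correlation of 0.867, against -0.857 with the LL step from ZT6 to ZT12, as descriptions across genes that were chosen for their change under SL and are not independent replicates. Joining risen and fallen genes enlarges both values. Within risen and within fallen genes they were -0.723 and -0.701 with the LL step from ZT6 to ZT12. With the LL step from ZT18 to ZT0 they were 0.76 and 0.711. The median among risen genes was 0.56 under SL and 0.31 in this LL step, and among fallen genes -0.57 and -0.34, where being chosen on SL enlarges the SL values. A test of the difference between the SL step and this LL step passed for 1 gene of 14456 (0.00692%), with 987 (6.83%) at an unadjusted p under 0.05, while DESeq2 called 20 higher and 8 lower. The 1 higher gene became 4 without SL ZT6 replicate 3 or LL ZT18 replicate 3 and 2 without SL ZT12 replicate 2, and the 0 lower became 1 without SL ZT6 replicate 3 or LL ZT18 replicate 2. A p that misses the threshold does not show that the steps are alike, and the pair of steps was chosen with earlier results known. Among the genes with the smallest p values that did not pass (edgeR adjusted p = 0.0588 to 0.104) were Tmem37 (0.23 under SL and -0.38 ± 0.08 under LL), Casp6 (-0.57 and 0.33 ± 0.12), Syt1 (-0.85 and 0.20 ± 0.15) and Pnkd (0.90 and 0.30 ± 0.09). Some LL livers held muscle transcripts that the SL livers of the step nearly lacked. Skeletal muscle markers summed to 11.6 to 230 CPM at LL ZT18 and to 0.863 to 104 CPM at LL ZT0. In the 8 SL livers of the step the sums were 0.327 to 0.971 CPM. Acta1 had means of 23.4 CPM at LL ZT18 and 7.73 CPM at LL ZT0, against 0.0403 and 0.176 CPM at SL ZT6 and ZT12. The part of muscle transcripts in these differences was not tested.

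**Figure D5:**
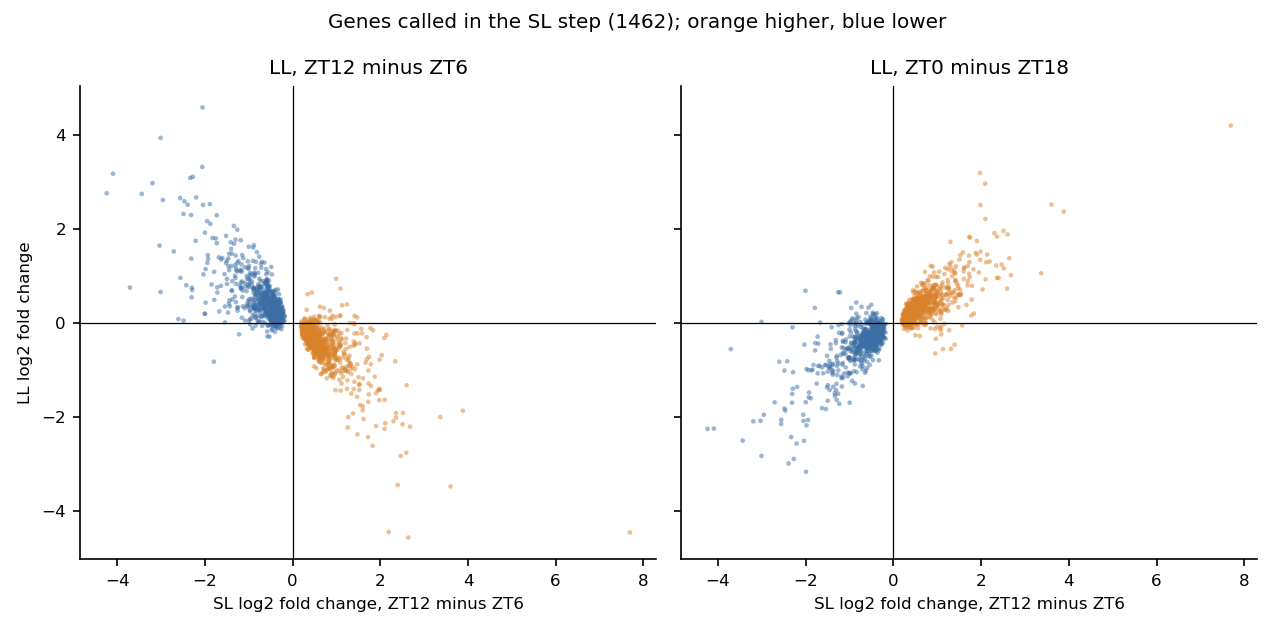
Log2 fold change of the 1462 genes called in the short light step (x axis, ZT12 minus ZT6) against their change in 2 long light steps (y axis), ZT6 to ZT12 on the left and ZT18 to ZT0 on the right, 1 point per gene. Points fall on a descending band on the left (749 of 791 risen genes negative under LL) and on an ascending band on the right (734 of 791 positive).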

How the data were processed

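Liver polyadenylated RNA was sequenced in 32 libraries, 4 per photoperiod and time, after a stranded mRNA library preparation, per the labels' protocols. Per the submitters' processing notes the tools included bcl2fastq 2.20.0, STAR 2.7.2b and featureCounts 1.6.2 and the genome builds GRCm38 and mm10. The authors deposited raw read counts per gene for all libraries. They also deposited log2 expression values, whose making the sources used here do not describe and which served only as an alternative here. All 32 libraries were fitted together by group with the quasi-likelihood test of edgeR 4.0.16 (R 4.3.3) on the counts, with TMM scaling, the default expression filter by group and Benjamini-Hochberg adjustment at 0.05. The change from ZT6 to ZT12 and its differences from the LL steps were contrasts of this fit. CPM use the TMM-scaled library size. Total counts were 11903471 to 20782403 in the 8 libraries of the step, and the counting interval covers counting error only.

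On simulated counts for 14456 genes with the design of the SL step, the fit called 90 of 100 genes changed by 1 on the log2 scale, 99 of 100 changed by 2, and 12 of 14256 unchanged genes. The changed genes were drawn from those with mean CPM of at least 1, and no expression filter was run. The share called among lower genes was not measured. Symbols for 14445 tested genes came from a GENCODE annotation of GRCm38. Named genes were the 12 largest rises and falls with mean CPM of at least 1 and no overlap between groups, the clock list, up to 4 called genes per list by smallest p, the 6 smallest p for each difference, and further members that complete a list's count whatever their values. Some genes that these rules name are not reported here. The members and lists were chosen with earlier results of these data known. Alternatives were other scalings (DESeq2 1.42.0 size factors, and TMM without the most abundant genes), DESeq2, limma-voom (limma 3.58.1), no or a stricter filter, a replicate block, a fit of the compared groups alone, limma on the deposited log2 values, and leaving out each replicate. Added after seeing the data was a fit of the LL step from ZT6 to ZT12 without LL ZT12 replicate 3.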

Additional observations from a re-analysis of the deposited data

Results flagged for a closer look

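In 15 of 246 groups of 4 livers, 1 liver lay apart from the other 3 of its group by Dixon's criterion, where chance flags about 1 in 20 groups. SL ZT12 replicate 1 was the highest of its group for Elovl3 at 734 CPM, Clic3 at 7.77 CPM, Klf15 at 119 CPM, Tat at 1950 CPM and Bnip3 at 88.5 CPM. SL ZT12 replicate 4 was the highest for Cidec at 4.33 CPM and Hspa1b at 4.53 CPM and the lowest for Abcg5 at 57.4 CPM. SL ZT12 replicate 3 was the highest for Mcm7 at 13.9 CPM. SL ZT6 replicate 1 was the lowest for Osgin1 at 36.1 CPM and Sult1d1 at 113 CPM and the highest for Plin4 at 12.0 CPM. SL ZT6 replicate 3 was the lowest for Usp2 at 32.3 CPM, Cyp7a1 at 182 CPM and Slc39a14 at 304 CPM.

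The change from ZT6 to ZT12 differed between the photoperiods in 2790 genes by edgeR's test of the difference. On the log2 scale the SL value minus the LL value was 5.29 for Elovl3, and it was -6.94 for Usp2, -4.61 for Upp2, -4.11 for Por and -3.37 for Nrg4. Against the LL step from ZT18 to ZT0 the test passed for 1 gene.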

How the results depend on the processing

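No named gene that passed the test in either fit changed sign in the SL step under the alternatives run. Medians of lists and families and values of other steps were not refitted, save the LL step from ZT6 to ZT12 without LL ZT12 replicate 3, where 1 SL fall fell in place of 0. With 1 library of the step left out, 612 to 687 genes rose and 474 to 607 fell, and the other alternatives gave 1226 (no filter) to 1820 genes (only the groups compared) in all. Over the named genes, 1078 results of these other alternatives kept their side of the threshold, 14 no longer passed and 1 newly passed. With 1 library left out, 912 results kept their side, 63 no longer passed and 1 newly passed. The difference from the LL step ZT18 to ZT0 moved most. Against 1 gene higher and 0 lower, DESeq2 gave 20 and 8, no filter 7 and 5, only the groups compared 6 and 1, limma on the authors' log2 values 3 and 2, and leaving out a replicate 1 to 4 and 0 to 1. The cause was not tested. The labels do not say what the replicate numbers mean. Same-numbered livers correlated at -0.152, -0.065, -0.0174 and 0.142 once group means were taken out. These values cannot decide whether the numbers pair the livers. With the number as a replicate block 789 genes rose and 664 fell, 1395 of all calls were shared, and the difference just named had 2 genes higher, and replicate 4 of each time was the only same-numbered pair in which both livers correlated best with each other. Depth limits the low genes, such as Npas2 with 3 reads at ZT6.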

Other observations

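Gene families outside the lists above were chosen after their values were seen and are given as values, with no test of a family. Of all tested genes 5.47% were higher and 4.64% lower. Some families moved in few genes or both ways, such as 4 higher and 1 lower of 37 Trim genes and 2 and 1 of 9 p24 cargo receptors. Slc39 zinc transporters had 1 and 1 of 12 and Alg genes 2 and 0 of 12. Others moved 1 way. Of 14 syntaxins 5 were higher and 0 lower. Lower were 5 of 11 acyl-CoA thioesterases, 3 of 4 Pfkfb isozymes and 3 of 4 Fads desaturases, with 0 higher in each. Some members of these last families also stand in lists above. Tubulins, the building blocks of microtubules, had 6 of 10 tested genes higher at ZT12 and 0 lower, with all 10 values above 0 and a median log2 fold change of 0.59. Tubb2a went from 61.4 ± 10.1 to 170 ± 17.3 CPM (mean ± SD, n = 4 livers per group) and Tuba4a from 92.6 ± 10.7 to 175 ± 8.68 CPM. Of 7 tested claudins, which seal cell junctions, Cldn1 (72.5 ± 22.9 to 174 ± 13.9 CPM) and Cldn2 were higher.

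Mitochondrial carriers of the Slc25 family had 9 of 41 tested genes lower at ZT12 and 0 higher, with 32 values below 0 and a median of -0.18. Slc25a51, which carries NAD into mitochondria, went from 89.5 ± 7.02 to 42.0 ± 5.96 CPM, and Slc25a32, a folate or FAD carrier, from 56.8 ± 5.78 to 30.6 ± 2.06 CPM. Of 4 flavin monooxygenases 3 were lower, led by Fmo2 (26.9 ± 2.32 to 10.6 ± 2.89 CPM), and of 17 proton pump (V-ATPase) subunits 4 were lower and 0 higher, with a median of -0.06. Among 11 monocarboxylate transporters Slc16a1 was higher (52.1 ± 5.80 to 91.2 ± 6.91 CPM) while Slc16a12, Slc16a7 and Slc16a5 were lower.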
